A study of Mus musculus with 17 samples.

Results

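A set of 38 genes of cholesterol and lipid metabolism was followed in sorted astrocytes of the mouse cortex and of 3 thalamic nuclei. The genes were chosen by name for 4 roles, with earlier results of these data known. They were 18 enzymes of sterol synthesis, 4 regulators of that pathway and 6 genes of lipid export and transport. The other 10 make, desaturate, elongate or take up fatty acids. All 38 were found among the 26556 genes counted, and all 38 passed the filter on low counts in every comparison. The 17 RNA-seq libraries came from FVB mice carrying a *Gfap::GFP* reporter, at postnatal day 7, and their labels give no treatment. Green fluorescent astrocytes were sorted by flow cytometry (FACS) from the somatosensory cortex (4 libraries, a to d), the dorsolateral geniculate nucleus (dLG, 5 libraries, a to e), the ventral posteromedial nucleus (VPM, 4 libraries, a to d) and the ventral medial geniculate nucleus (MGv, 4 libraries, a to d), and each library pooled 4 brains. The 3 nuclei are the primary visual, somatosensory and auditory relays of the thalamus. All groups carry the same reporter, whose GFP is driven by a *Gfap* promoter, so the sort selected for cells with enough GFP. Markers of other cell types were also present in the libraries, as given below.

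Cells make cholesterol from acetyl-CoA through the mevalonate pathway to squalene, which is then cyclised and trimmed to cholesterol by a chain of sterol enzymes. The genes of these enzymes are switched on together by the transcription factor SREBP2, which is held in the endoplasmic reticulum by INSIG proteins when membranes are rich in sterol, while the related SREBP1 mainly drives fatty acid synthesis. Blood lipoproteins do not enter the brain, so brain cholesterol is made locally. Astrocytes make much of it after birth and pass it to neurons on lipoprotein particles that carry apolipoprotein E and are loaded by ABC transporters. Oligodendrocytes also make large amounts of cholesterol for myelin.

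The libraries held 18213687 to 50366363 counted reads, and 16 of the 17 lay at or below 21519981; cortex a was the deepest. At these depths 3 reads equal 0.0596 to 0.165 CPM (counts scaled to library size and between libraries by TMM), and every level given below is in this unit. The dLG c library stood apart with the fewest genes detected, 17749 against 21052 to 23365 in the others, and it is also alone in its series of library numbers in the labels. Astrocyte markers were abundant in all groups, but the sum of 10 of them was mostly lower in thalamus. That sum was 12983 to 13975 CPM in cortex, 7922 to 9460 in dLG, 6759 to 9280 in VPM and 6391 to 15700 in MGv. Among them *Aqp4*, the water channel of astrocyte endfeet, stood at 1477 to 1728 CPM in cortex and 1785 to 2509 in dLG. It was 1524 to 2204 CPM in VPM and 873 to 3049 in MGv. Although the sort rests on a *Gfap* promoter, *Gfap* itself was only 8.98 to 19.3 CPM in VPM, compared with 450.4 to 538 in cortex, 78.3 to 1310.0 in dLG and 36.1 to 5525 in MGv. The summed level of 5 oligodendrocyte precursor markers was 5370 to 7597 CPM across all 17 libraries, and *Pdgfra*, a defining gene of that lineage, stood at 1080.3 to 1288 CPM in cortex and 783 to 1329 CPM in thalamus. In such bulk libraries fewer cells of a type and less RNA per cell cannot be told apart.

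Divided by the merged length of all annotated exons, *Apoe* was by far the most abundant of the 38 genes. Its mean level was 4565 CPM per kilobase of exon over the 17 libraries. The merged length can exceed that of a single transcript, so the order is approximate. *Scd2* and *Clu* followed at 481 and 449.5 CPM per kilobase, and *Hmgcs1*, the first of the sterol enzymes in this order, at 235 CPM per kilobase. *Acaca* and *Lpl* were the lowest, at 1.41 and 2.40 CPM per kilobase. *Idi1* and *Fdps* were also low, at 3.63 and 7.44 CPM per kilobase. *Fdps* shares 26.7% of its exonic bases with a second gene model on the same strand, and reads there could have been split or dropped in counting.

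The first comparison asked how thalamic astrocytes, the 13 libraries of the 3 nuclei, differed from the 4 cortical libraries. Of the 38 genes, 12 were lower in thalamus and none was higher at an edgeR quasi-likelihood adjusted p under 0.1. Over all 17856 genes tested, 5.93% were lower and 5.45% higher. Among the sterol enzymes 7 of 18 fell, and 17 of 18 had a negative log2 fold change, with a median of -0.39 against 0.02 for all genes tested. The regulators gave 1 lower gene of 4, the fatty acid genes 4 lower of 10 with a median of -0.26, and the export genes none of 6, with a median of 0.34. None was higher in DESeq2 either, although 2 of the 38 had an unadjusted p under 0.05 in that direction. The summed level of the 18 sterol enzymes was 6471 to 7045 CPM in cortex and 3777 to 5970 CPM in the thalamic libraries, without overlap.

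**Figure D1:**
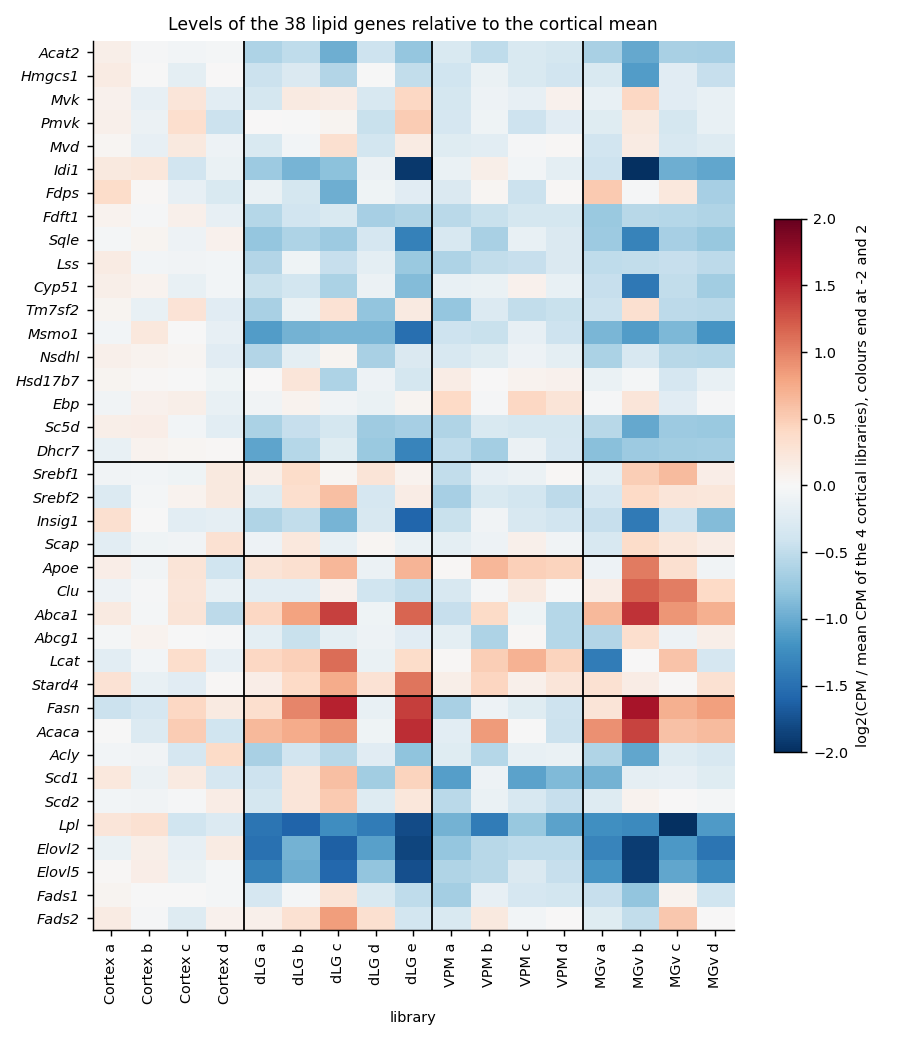
Level of each of the 38 genes (rows, grouped by role in the order sterol synthesis, regulation, export, fatty acids) in each of the 17 libraries (columns), as the log2 ratio to the mean CPM of the 4 cortical libraries. The sterol synthesis rows *Acat2*, *Fdft1*, *Sqle*, *Msmo1*, *Sc5d* and *Dhcr7* are blue across the thalamic columns, with *Msmo1* palest in VPM, while *Mvk* and *Ebp* are mixed, and *Abca1*, *Fasn* and *Acaca* are red in most dLG and MGv columns.

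The gene of the first step of sterol synthesis fell. ACAT2 joins acetyl-CoA units into acetoacetyl-CoA in the cytosol. *Acat2* measured 318, 287, 280.0 and 283 CPM in cortex a to d, 190.0, 204, 149, 219.6 and 171 CPM in dLG a to e, 237, 205, 235 and 229 CPM in VPM a to d and 187, 144, 186 and 185 CPM in MGv a to d. No thalamic library reached the lowest cortical one, and the log2 fold change was -0.58 ± 0.12 (SE, adjusted p = 0.00366). Because *Acat2* has a close copy, *Acat3*, next to it on chromosome 17, reads of the pair may be shared. The next enzyme, HMG-CoA synthase 1, is encoded by *Hmgcs1*. *Hmgcs1* measured 1471, 1310.2, 1149 and 1315 CPM in cortex a to d, 973, 1071, 869, 1303 and 934 CPM in dLG a to e, 989.5, 1201, 1062 and 1007 CPM in VPM a to d and 1059, 603, 1115 and 955 CPM in MGv a to d. Cortex was the higher side but dLG d and VPM b overlapped it, and the log2 fold change of -0.38 ± 0.14 did not pass the test (adjusted p = 0.106).

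None of the enzymes that turn mevalonate into isoprenoid units passed the test. *Mvk*, mevalonate kinase, was 103 to 142 CPM in cortex and 93.5 to 159 CPM in thalamus, with a log2 fold change of -0.02 ± 0.15. *Pmvk* and *Mvd*, which add the next phosphate and remove a carboxyl group, gave -0.09 ± 0.16 and -0.10 ± 0.13. *Idi1*, the isomerase of the isoprenoid unit, was 17.1 ± 3.28 CPM (mean ± SD, n = 4) in cortex and 11.4 ± 4.59 CPM (n = 13) in thalamus, a log2 fold change of -0.58 ± 0.30 that did not pass the test (adjusted p = 0.283). *Fdps*, farnesyl diphosphate synthase, gave -0.14 ± 0.20 (adjusted p = 0.748).

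Of the 11 enzymes from squalene synthesis onward 6 fell. *Fdft1* encodes squalene synthase, which commits farnesyl units to sterols. *Fdft1* measured 292, 274, 298 and 248 CPM in cortex a to d, 187, 214, 225, 176 and 183 CPM in dLG a to e, 191, 203, 217 and 219 CPM in VPM a to d and 166, 189, 186 and 183 CPM in MGv a to d. All 13 thalamic libraries lay below all 4 cortical ones, with a log2 fold change of -0.51 ± 0.09 (SE, adjusted p = 0.00124). *Fdft1* shares 18.3% of its exonic bases with *Ctsb* on the other strand, and whether the counting used strand was not stated. Squalene epoxidase, the product of *Sqle*, is a rate-limiting step after mevalonate. *Sqle* measured 917, 969, 870.3 and 994 CPM in cortex a to d, 548, 610.2, 568, 739 and 367 CPM in dLG a to e, 747, 596, 847 and 769 CPM in VPM a to d and 564, 371, 590.1 and 555 CPM in MGv a to d. The groups did not overlap, VPM c coming closest to cortex and dLG e and MGv b lying lowest, and the level was 1.55-fold lower in thalamus, a log2 fold change of -0.63 ± 0.17 (SE, adjusted p = 0.0235).

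Lanosterol synthase, encoded by *Lss*, closes the sterol rings. *Lss* measured 205, 178, 175 and 176 CPM in cortex a to d, 123, 173, 133, 159.9 and 110.0 CPM in dLG a to e, 119, 131, 133 and 149.7 CPM in VPM a to d and 129, 130.4, 133 and 128 CPM in MGv a to d. The groups did not overlap, but dLG b came within a few CPM of cortex c, and the log2 fold change was -0.45 ± 0.10 (SE, adjusted p = 0.00969). *Msmo1* encodes the oxidase that removes methyl groups at carbon 4 of the sterol nucleus, and it had the largest change of the 18. *Msmo1* measured 1332, 1600.2, 1383 and 1235 CPM in cortex a to d, 642, 724, 737, 738 and 487 CPM in dLG a to e, 1036, 1016, 1244 and 1038 CPM in VPM a to d and 738, 637, 740.3 and 612 CPM in MGv a to d. Here dLG and MGv lay far below cortex, 2.08-fold and 2.04-fold lower in the fit of each nucleus against cortex, while VPM c overlapped the lowest cortical library. The log2 fold change was -0.80 ± 0.18 (SE, adjusted p = 0.00738).

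Genes of the last steps also fell. *Sc5d* encodes the desaturase that sets the double bond at carbon 5. *Sc5d* measured 208, 211, 186 and 167 CPM in cortex a to d, 125, 140.0, 151, 117 and 122 CPM in dLG a to e, 128, 156, 151 and 152 CPM in VPM a to d and 131, 94.7, 116 and 115 CPM in MGv a to d. All thalamic libraries were below all cortical ones, at a log2 fold change of -0.56 ± 0.12 (SE, adjusted p = 0.0035). *Dhcr7* encodes 7-dehydrocholesterol reductase, which makes cholesterol itself. *Dhcr7* measured 560.0, 651, 636 and 628 CPM in cortex a to d, 298, 415, 525, 369 and 249 CPM in dLG a to e, 433, 388, 572 and 489 CPM in VPM a to d and 346, 373, 382 and 386 CPM in MGv a to d. VPM c overlapped cortex a, and the log2 fold change was -0.62 ± 0.15 (SE, adjusted p = 0.0146).

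The other sterol enzymes did not pass the test. *Cyp51*, lanosterol demethylase, was 642 ± 51.8 CPM in cortex and 485 ± 119 in thalamus (-0.41 ± 0.18 on the log2 scale, adjusted p = 0.203). *Nsdhl*, which works beside MSMO1 at carbon 4, was 203 ± 19.5 and 161 ± 25.2 CPM (-0.34 ± 0.12, adjusted p = 0.108). *Tm7sf2*, a sterol reductase, gave -0.28 ± 0.19, *Hsd17b7*, the keto-reductase of the carbon 4 complex, -0.07 ± 0.12, and *Ebp*, the isomerase, 0.08 ± 0.13, the only positive value of the 18. Of all 18 enzymes, 5 (27.8%) had thalamus wholly below cortex (*Acat2*, *Fdft1*, *Sqle*, *Lss* and *Sc5d*), and all 5 were among the 7 that fell. Over all genes with a mean of at least 1 CPM, called or not, 3.47% had thalamus wholly below cortex.

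**Figure D2:**
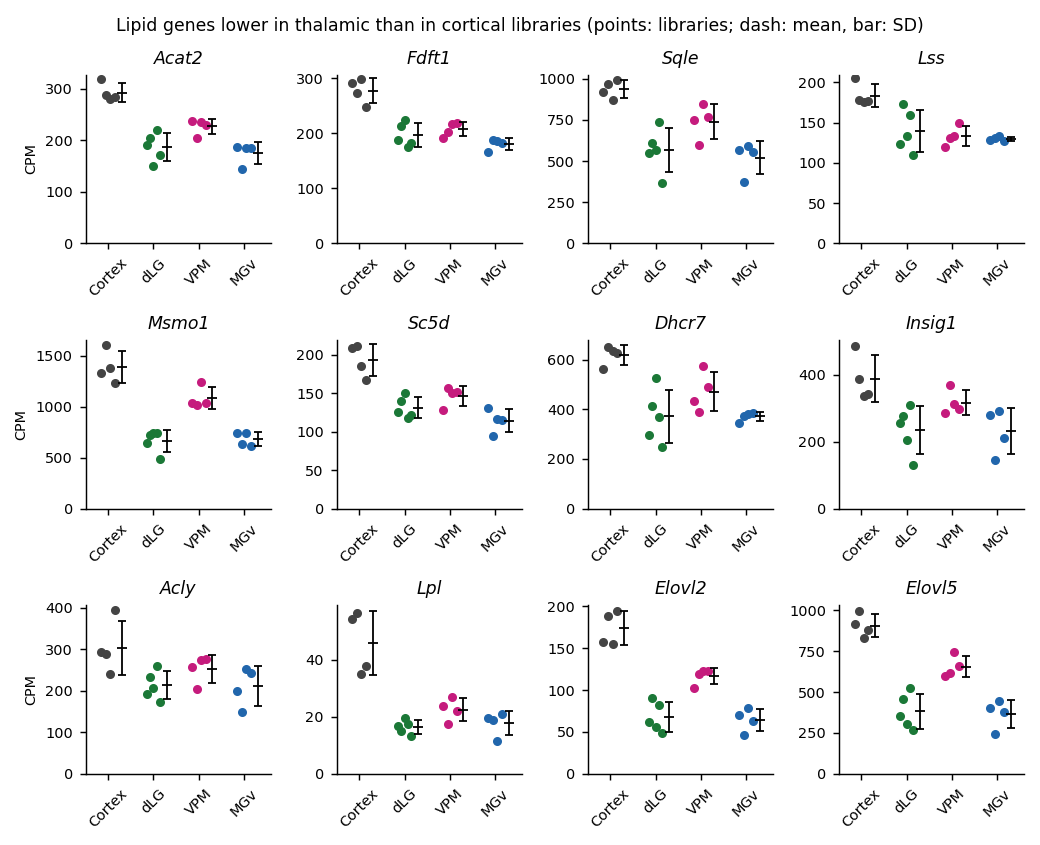
CPM in each library for the 12 genes lower in thalamus at adjusted p under 0.1; points are libraries, dashes group means and bars 1 SD (n = 4, 5, 4 and 4). The 4 cortical points sit above the thalamic ones for *Acat2*, *Fdft1*, *Sqle*, *Lss*, *Sc5d*, *Lpl*, *Elovl2* and *Elovl5*. The VPM mean lies between the cortical mean and the means of both other nuclei for every gene shown but *Lss*. The VPM points lie wholly above those of the other nuclei only for *Msmo1*, *Elovl2* and *Elovl5*.

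Promoter sequences are shown for 4 of the genes that fell and had a RefSeq window, and for *Hmgcs1*. SREBP acts at such promoters together with factors that bind a CCAAT box. The 4 are 3 sterol enzymes and the elongase *Elovl5*, and all 4 sequences held the box. Each runs 5′ to 3′ along the gene, from 250 bases before to 50 bases after the RefSeq start (GRCm38.p6). Capitals mark CCAAT, or ATTGG where the box is on the other strand, and in *Hmgcs1* also TCACCCCAC, the letters of a sterol regulatory element.
Msmo1, chr8:64733529-64733828, minus strand: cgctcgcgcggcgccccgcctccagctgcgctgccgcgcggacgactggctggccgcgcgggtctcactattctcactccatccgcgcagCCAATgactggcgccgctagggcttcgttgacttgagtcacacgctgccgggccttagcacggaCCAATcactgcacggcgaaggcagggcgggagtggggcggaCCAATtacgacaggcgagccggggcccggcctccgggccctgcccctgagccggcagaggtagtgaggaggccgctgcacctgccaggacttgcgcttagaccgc
Lss, chr10:76531355-76531654, plus strand: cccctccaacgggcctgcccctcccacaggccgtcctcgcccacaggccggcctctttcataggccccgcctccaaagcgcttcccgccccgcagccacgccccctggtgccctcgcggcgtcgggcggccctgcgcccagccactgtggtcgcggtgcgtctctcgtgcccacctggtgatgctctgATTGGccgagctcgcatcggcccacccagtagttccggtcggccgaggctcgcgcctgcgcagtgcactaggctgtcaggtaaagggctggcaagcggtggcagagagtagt
Sc5d, chr9:42264251-42264550, minus strand: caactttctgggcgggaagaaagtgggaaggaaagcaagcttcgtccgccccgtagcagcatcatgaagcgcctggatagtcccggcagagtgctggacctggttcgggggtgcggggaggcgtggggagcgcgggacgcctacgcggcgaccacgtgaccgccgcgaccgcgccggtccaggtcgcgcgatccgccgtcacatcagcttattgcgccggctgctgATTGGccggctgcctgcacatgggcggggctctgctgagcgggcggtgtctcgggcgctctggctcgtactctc
Elovl5, chr9:77917115-77917414, plus strand: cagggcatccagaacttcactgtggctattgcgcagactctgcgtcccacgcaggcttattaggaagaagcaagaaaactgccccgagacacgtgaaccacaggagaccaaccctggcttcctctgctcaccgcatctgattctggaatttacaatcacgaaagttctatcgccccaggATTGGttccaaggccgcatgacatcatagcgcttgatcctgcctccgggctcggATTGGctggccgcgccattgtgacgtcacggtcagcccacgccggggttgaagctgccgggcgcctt
Hmgcs1, chr13:119690101-119690400, plus strand: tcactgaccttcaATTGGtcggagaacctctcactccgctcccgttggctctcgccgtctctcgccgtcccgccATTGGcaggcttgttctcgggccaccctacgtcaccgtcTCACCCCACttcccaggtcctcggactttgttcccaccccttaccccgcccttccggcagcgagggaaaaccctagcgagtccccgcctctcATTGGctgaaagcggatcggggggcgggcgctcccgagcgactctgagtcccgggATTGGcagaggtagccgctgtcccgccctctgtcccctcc
*Msmo1* held CCAAT on its own strand at -160, -96 and -55 from the start, and *Lss* and *Sc5d* held it on the other strand at -62 and -24. Windows were found for 28 of the 38 genes, and CCAAT stood on either strand in 14 of the 15 sterol enzymes with a window (93.3%), all but *Acat2*, against 41.1% of all 27025 genes with a window. It stood in 3 of 4 regulators, 1 of 3 export genes and 3 of 6 fatty acid genes. Of the fallen genes that had a window and are not shown, *Dhcr7*, *Insig1* and *Acly* held it, and *Acat2* and *Elovl2* did not. TCACCCCAC, searched on both strands, was in 1 of the 28, *Hmgcs1* at -137, and in 0.614% of all genes. It does not overlap a CCAAT box there. The CCAAT box stood in 4 of the 5 sterol enzymes that fell and had a window, and in 10 of the 10 that did not pass the test.

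Among the 4 regulators *Insig1* was called. It encodes the protein that retains SREBP in the endoplasmic reticulum and is itself an SREBP target. *Insig1* measured 488, 388, 337 and 344 CPM in cortex a to d, 255, 277, 204, 310.4 and 129 CPM in dLG a to e, 287, 369.7, 313 and 298 CPM in VPM a to d and 282, 145, 293 and 212 CPM in MGv a to d. Cortical levels were higher except that VPM b overlapped them, and the lowest values were in dLG e and MGv b. Its log2 fold change was -0.58 ± 0.20 (SE, adjusted p = 0.0854), and the call was lost in 9 of 17 fits without 1 library, among them each cortical library (adjusted p up to 0.305). *Srebf2*, the gene of SREBP2, was 376 ± 50.4 CPM in cortex and 372 ± 105 CPM in thalamus (-0.01 ± 0.20 on the log2 scale). *Srebf1* gave 0.12 ± 0.15, and *Scap*, the gene of the escort protein that senses sterol, 0.01 ± 0.12.

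Lipid export genes were not called in this comparison. *Apoe* encodes the main apolipoprotein of astrocytes. *Apoe* measured 8635, 7470.3, 9406 and 5993 CPM in cortex a to d, 9376, 9885, 12438, 7231 and 12552 CPM in dLG a to e, 7975, 12440, 10922 and 10759 CPM in VPM a to d and 7329, 16130, 9881 and 7504 CPM in MGv a to d. The ranges overlapped widely, with MGv b highest and cortex d lowest, and the log2 fold change was 0.39 ± 0.19 (SE, adjusted p = 0.252). *Clu*, the gene of clusterin, another apolipoprotein of astrocyte particles, gave 0.20 ± 0.26 (SE, adjusted p = 0.717). *Abca1* encodes the transporter that loads cholesterol onto such particles, and its 0.64 ± 0.31 (adjusted p = 0.254) came with a wide spread between nuclei, described below. *Abcg1*, a partner transporter, gave -0.19 ± 0.15, *Lcat*, which esterifies cholesterol on lipoproteins, 0.31 ± 0.27, and *Stard4*, a cytosolic sterol carrier, 0.36 ± 0.17. An unadjusted p under 0.05 was reached by 1 of the 6, in the higher direction.

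Among the fatty acid genes, those of uptake and elongation fell. *Lpl* encodes lipoprotein lipase, which frees fatty acids from lipoprotein triglyceride, and it had the largest change of the 38. *Lpl* measured 54.5, 56.4, 34.9 and 37.9 CPM in cortex a to d, 16.6, 15.2, 19.5, 17.5 and 13.3 CPM in dLG a to e, 23.8, 17.4, 27.0 and 21.9 CPM in VPM a to d and 19.5, 18.9, 11.5 and 20.9 CPM in MGv a to d. The lowest cortical library was above the highest thalamic one, and the level was 2.46-fold lower in thalamus, a log2 fold change of -1.30 ± 0.18 (SE, adjusted p = 5.2e-05). *Elovl2* and *Elovl5* encode elongases of polyunsaturated fatty acids, on the route to docosahexaenoic acid. *Elovl2* measured 158, 188, 155 and 194 CPM in cortex a to d, 61.5, 90.6, 56.0, 82.3 and 48.8 CPM in dLG a to e, 102, 119, 122 and 123 CPM in VPM a to d and 69.8, 46.6, 78.1 and 63.2 CPM in MGv a to d. *Elovl5* measured 919, 996, 828 and 879 CPM in cortex a to d, 356, 458, 306, 523 and 269 CPM in dLG a to e, 597, 619, 744 and 656 CPM in VPM a to d and 402, 246, 443 and 379 CPM in MGv a to d. For both genes cortex was wholly above thalamus, with VPM the highest of the nuclei, and the log2 fold changes were -1.09 ± 0.22 (SE, adjusted p = 0.0027) and -0.97 ± 0.22 (SE, adjusted p = 0.00797).

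*Acly*, ATP citrate lyase, which supplies cytosolic acetyl-CoA to both pathways, was 304 ± 65.1 CPM in cortex and 225 ± 40.0 CPM in thalamus, with overlap, and a log2 fold change of -0.43 ± 0.15 (SE, adjusted p = 0.0839). Its call was lost in 8 of 17 fits without 1 library, among them cortex a, b and d (adjusted p up to 0.464). The synthases of saturated fatty acid ran the other way without passing the test. *Fasn*, fatty acid synthase, gave 0.66 ± 0.38 (adjusted p = 0.335) and *Acaca*, acetyl-CoA carboxylase, 0.67 ± 0.30 (adjusted p = 0.198). The desaturase genes gave -0.24 ± 0.26 for *Scd1*, -0.07 ± 0.16 for *Scd2*, -0.28 ± 0.15 for *Fads1* and 0.11 ± 0.19 for *Fads2*. *Scd1* and *Scd2* are close paralogs, and reads that fit both may not have been counted.

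**Figure D3:**
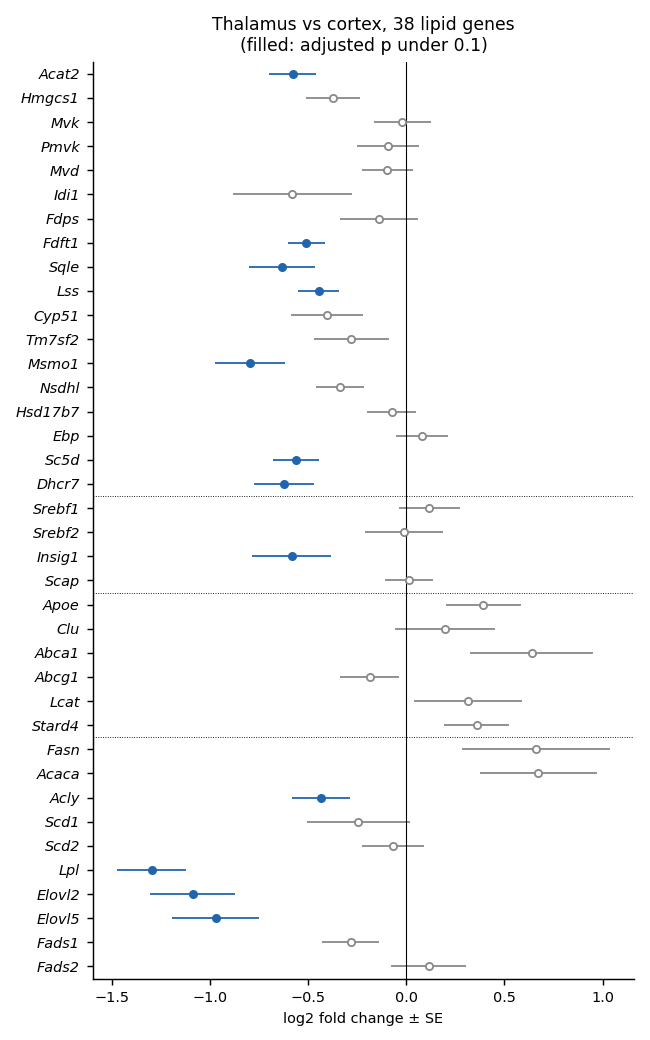
Log2 fold change of the 38 genes in thalamus (13 libraries) against cortex (4 libraries), with standard errors derived from the edgeR test; filled points have an adjusted p under 0.1 and dotted lines part the 4 roles. All 12 filled points are on the negative side, from -0.43 for *Acly* to -1.30 for *Lpl*.

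The only batch-like label is the series of the library number, which splits the libraries into 10, 6 and 1. Within the 10 libraries of the first series all 12 genes were lower in thalamus, at log2 fold changes of -1.09 to -0.35. Of these, 3 passed the test (*Fdft1*, *Lpl* and *Elovl2*), where 586 of all 18666 genes tested were called lower. Within the 6 libraries of the second, which hold no MGv, all 12 were lower at -1.61 to -0.36. The test was passed by 1 (*Lpl*), where 236 of all 17269 genes tested were called lower. The 12 genes were chosen over all libraries, these included, so the shared direction is not independent of that choice. The median of the 18 sterol enzymes was -0.34 and -0.40 in the 2 series. Other cell markers were read beside these results. None of the 5 oligodendrocyte precursor markers was called between regions by edgeR or DESeq2, and none had an unadjusted p under 0.05, and of 10 oligodendrocyte markers tested only *Myrf* was, as higher in thalamus, with sums of 2457 to 3565 CPM in cortex and 1737 to 7556 CPM in thalamus. Of 10 astrocyte markers, *Slc1a3*, *Slc1a2* and *Aldoc* were lower and *S100b* higher in thalamus. *Slc1a3* stood at 4499.7 to 5621 CPM in cortex and 1176 to 2005 CPM in thalamus. The summed level of the 10 was 12983 to 13975 CPM in cortex and 6391 to 15700 CPM in thalamus. Its thalamic median was 8666 CPM, and MGv c alone lay above cortex. Of 10 neuronal markers 3 were higher and 1 lower, and *Pdgfrb* of the 4 mural markers was lower, their summed level being 37.8 to 63.4 CPM in cortex and 2.02 to 33.8 CPM in thalamus. Of 6 microglial, 4 endothelial and 8 dissociation stress markers tested edgeR called none, while 1 microglial and 2 stress markers had an unadjusted p under 0.05 and DESeq2 called 1 of each as higher. The stress sums ran from 788 to 3605 CPM in cortex and from 667 to 6121 CPM in thalamus. Of 2 ependymal markers tested 1 was lower, and of 3 meningeal fibroblast markers 1 was higher and 1 lower. Of 4 proliferation markers 3 were higher in thalamus. The part of these markers in the lipid result was not tested.

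Genes of the same pathways outside the 38 were read from 6 lists. Of 11 further sterol genes, 2 were lower in thalamus, among them *Insig2*, the second INSIG gene, which gave -0.45 ± 0.13 (SE, adjusted p = 0.0331). Of 24 genes of cholesterol uptake, storage and turnover, 1 fell and 1 rose. *Scarb1*, the gene of a lipoprotein receptor, was 182 ± 9.33 CPM in cortex and 78.3 ± 12.3 CPM in thalamus (-1.22 ± 0.12, adjusted p = 7.0e-07), without overlap. *Cyp7b1*, an oxysterol hydroxylase, rose by 0.94 ± 0.20 (adjusted p = 0.00374).

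Of 22 further fatty acid synthesis genes tested, 5 fell and 1 rose. The 3 with the lowest p all fell: the acyl-CoA synthetase *Acsl6* at -1.03 ± 0.12, the elongation-cycle dehydratase *Hacd2* at -1.16 ± 0.14 and the acetyl-CoA synthetase *Acss2* at -0.84 ± 0.12, as log2 fold changes with adjusted p = 5.0e-06, 1.5e-05 and 1.3e-04. Of 25 genes of fatty acid binding and oxidation 1 fell, the thiolase *Acaa2* (-0.71 ± 0.17, adjusted p = 0.0091), and 1 rose, the fatty acid receptor *Cd36* (3.87 ± 0.95, adjusted p = 0.0142), which stood at 0 to 0.676 CPM in cortex and 0.615 to 5.65 CPM in thalamus, with overlap. Of 10 glycerolipid and lipid droplet genes 3 fell, *Pnpla2*, the triglyceride lipase, at -0.47 ± 0.13, *Gpam*, the first acyltransferase, at -0.91 ± 0.25 and *Plin3*, a droplet coat protein, at -0.88 ± 0.26. None of 4 genes of myelin galactolipid synthesis was called by edgeR or DESeq2, or had an unadjusted p under 0.05.

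Each nucleus was also set against cortex in a fit of the 4 groups, in which the 3 comparisons share the cortical libraries. In dLG 14 of the 38 genes were lower and 4 higher, against 9.04% and 10.3% of all genes tested. In MGv 16 were lower and 4 higher, against 7.51% and 7.87%. In VPM 5 were lower and none higher, against 5.44% and 3.56%. The 5 were *Fdft1*, *Lss*, *Sc5d*, *Lpl* and *Elovl2*. *Msmo1* gave -1.06 ± 0.13 in dLG, -0.36 ± 0.14 in VPM and -1.02 ± 0.14 in MGv on the log2 scale, and *Elovl5* gave -1.24 ± 0.18, -0.47 ± 0.19 and -1.30 ± 0.20. *Lpl* was lower in all 3, at -1.49 ± 0.20, -1.03 ± 0.21 and -1.38 ± 0.21. Above cortex stood *Abca1*, *Fasn* and *Acaca* in both dLG and MGv, *Stard4* in dLG (0.57 ± 0.17, adjusted p = 0.0363) and *Clu* in MGv (0.75 ± 0.20, adjusted p = 0.0191). *Acaca* was 12.6 to 23.4 CPM in cortex, 15.6 to 46.1 in dLG, 12.3 to 29.97 in VPM and 24.9 to 42.4 in MGv, so that MGv lay wholly above cortex while dLG overlapped it. The 4 higher calls in dLG fell to none without cortex b, to 1 without dLG c and to 2 without cortex a, cortex d or dLG e, and those in MGv to 1 without MGv b and to 2 without cortex a or b. The 5 lower calls in VPM became 2 without VPM a, and 3 without cortex a, cortex b, VPM c or VPM d. Within the first number series none of these 5 was called, though all 5 were lower in its libraries, which are among those that gave the calls.

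The second comparison asked how each nucleus differed from the mean of the other nuclei, among the 13 thalamic libraries. Most calls were in VPM. In VPM 5 of the 38 genes were higher and 5 lower, where over all 17319 genes tested 7.07% were higher and 9.78% lower. *Idi1*, *Cyp51* and *Msmo1* of the sterol enzymes and the elongases *Elovl2* and *Elovl5* were the higher ones. *Srebf1*, *Srebf2*, the exporter *Abca1* and the fatty acid genes *Fasn* and *Scd2* were the lower ones. The 18 sterol enzymes had a median log2 fold change of 0.18 in VPM against the other nuclei, with 12 of 18 positive, beside a median of -0.02 for all genes tested. Their summed level was 5213 to 5970 CPM in VPM, above all dLG and MGv libraries, which reached 5099 CPM. The sum leans on abundant genes, and of the 18 enzymes only *Msmo1* had VPM wholly above the other nuclei.

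*Msmo1* was 1036, 1016, 1244 and 1038 CPM in VPM, and 487 to 738 CPM in dLG and 612 to 740.3 CPM in MGv. VPM was wholly above the other nuclei, with a log2 fold change of 0.65 ± 0.12 (SE, adjusted p = 0.00528). *Elovl2* and *Elovl5*, whose levels by library are given above, were also wholly higher in VPM, at 0.79 ± 0.16 (SE, adjusted p = 0.0108) and 0.77 ± 0.17 (SE, adjusted p = 0.0158). These 3 genes were also among the 12 lower in thalamus as a whole, and both comparisons use the same VPM libraries. No other of the 38 had VPM wholly above or wholly below the rest, against 4.62% and 3.01% of all genes with a mean of at least 1 CPM. *Idi1* was 15.5, 18.5, 16.4 and 14.9 CPM in VPM, 10.3, 8.99, 9.69, 15.7 and 4.49 in dLG and 12.9, 4.09, 8.65 and 8.30 in MGv, so that dLG d overlapped VPM (0.81 ± 0.29, adjusted p = 0.085). *Cyp51* was 604 ± 50.1 CPM in VPM, 465 ± 91.6 in dLG and 389 ± 105 in MGv (0.47 ± 0.16, adjusted p = 0.0749), and both calls were lost without any one of the 4 VPM libraries, with adjusted p up to 0.184 for *Idi1* and 0.212 for *Cyp51*.

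Both SREBP genes were lower in VPM. *Srebf2* measured 311, 367, 394 and 431 CPM in cortex a to d, 314, 472, 567, 296 and 415 CPM in dLG a to e, 237, 306, 290.2 and 263 CPM in VPM a to d and 298, 496, 446 and 442 CPM in MGv a to d. VPM lay low, with dLG d and MGv a inside its range, and the log2 fold change was -0.64 ± 0.18 (SE, adjusted p = 0.0389). The call was lost without VPM a, c or d, at adjusted p = 0.143, 0.107 and 0.121. *Srebf1* was 287 ± 40.9 CPM in VPM, 365 ± 35.4 in dLG and 399 ± 97.4 in MGv, a log2 fold change of -0.45 ± 0.15 (SE, adjusted p = 0.0685). That call was lost in 7 of 13 fits without 1 library, among them each VPM library, and adjusted p reached 0.241. *Insig1* gave 0.41 ± 0.20 and *Scap* -0.14 ± 0.13, and neither passed the test.

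*Abca1* measured 162, 140.2, 173 and 100.1 CPM in cortex a to d, 193, 251, 371, 135 and 321.6 CPM in dLG a to e, 104, 187, 136 and 97.3 CPM in VPM a to d and 226, 392, 265 and 234 CPM in MGv a to d. In VPM 3 of the 4 libraries were at or below 136 CPM, and dLG d was the low library of its own nucleus. *Abca1* was 2.08-fold lower in VPM, a log2 fold change of -1.05 ± 0.26 (SE, adjusted p = 0.0245), and without VPM a it gave -0.95 and missed the threshold (adjusted p = 0.102). *Fasn* measured 184, 197, 331 and 280.3 CPM in cortex a to d, 313, 488, 723, 224 and 648 CPM in dLG a to e, 159, 231, 210.5 and 187 CPM in VPM a to d and 297, 775, 405 and 441 CPM in MGv a to d. VPM stayed at or below 231 CPM, near the cortical levels, while dLG and MGv spread from 224 to 775 CPM. The log2 fold change of *Fasn* was -1.32 ± 0.31 (SE, adjusted p = 0.0185), 2.49-fold lower, the largest of the 38 in this comparison. *Scd2*, the main stearoyl-CoA desaturase of brain, was 2129.6 ± 269 CPM in VPM, 2944 ± 735 in dLG and 2635 ± 258 in MGv (-0.42 ± 0.16, adjusted p = 0.0995), close to the threshold and lost in 9 of 13 fits without 1 library (adjusted p up to 0.278). *Acaca* and *Scd1* gave -0.75 ± 0.29 and -0.65 ± 0.26 and did not pass it (adjusted p = 0.109 and 0.124).

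**Figure D4:**
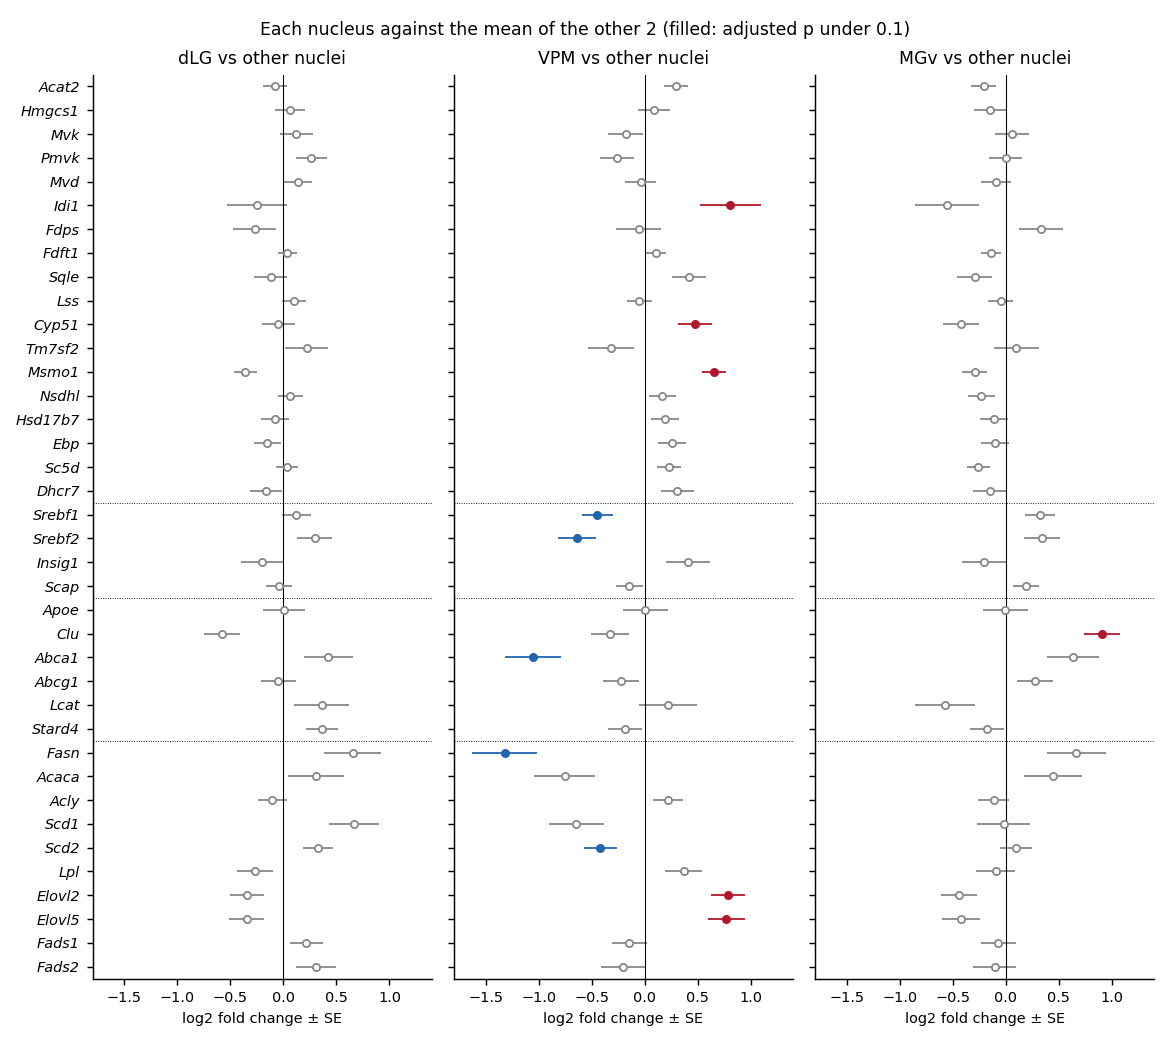
Log2 fold change with standard error of the 38 genes in dLG, VPM and MGv, each against the mean of the other 2 nuclei (13 libraries); filled points have an adjusted p under 0.1. VPM has 5 filled points on each side, MGv has *Clu* alone on the positive side, and dLG has none.

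In MGv 1 of the 38 was higher, *Clu*, and none was lower, where 1.57% and 0.756% of all genes were called. *Clu* measured 1298, 1359, 1647 and 1251 CPM in cortex a to d, 1195, 1201, 1479, 1058 and 996 CPM in dLG a to e, 1107, 1360.3, 1578 and 1387 CPM in VPM a to d and 1539, 3151, 2820.1 and 1838 CPM in MGv a to d. MGv b and c stood far above all other libraries, MGv d was next and MGv a lay within the upper range of the other groups, and the log2 fold change was 0.90 ± 0.17 (SE, adjusted p = 0.0138). In DESeq2 *Clu* was again the single call upward, and none was called downward, though 5 of the 38 had an unadjusted p under 0.05 on that side. *Lcat* gave -0.58 ± 0.28 and *Abca1* 0.63 ± 0.24, neither passing the test. In dLG none of the 38 was higher or lower, beside 0.941% and 0.214% of all genes. An unadjusted p under 0.05 was reached by 4 and 3 of them, and DESeq2 called 1, *Clu*, as lower. The largest values there were 0.67 ± 0.23 for *Scd1*, 0.65 ± 0.27 for *Fasn* and -0.58 ± 0.17 for *Clu*.

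Within the first number series, which holds 2 VPM, 2 dLG and 4 MGv libraries, all 10 genes called in VPM kept their direction. These libraries are among those that gave the calls, so the shared direction is not independent of them. Of the 10 genes, *Msmo1*, *Elovl2*, *Elovl5*, *Abca1* and *Fasn* passed the test there, and *Acaca*, not called over all libraries, did so too. *Clu* gave a log2 fold change of 0.83 in MGv in that series and did not pass, while *Abca1* was called as higher there.

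Markers of other cells moved with the VPM result. Of 10 oligodendrocyte markers tested 8 were higher in VPM, and the summed level of the list of 11 was 2979 to 7556 CPM in VPM, 2127 to 4397 in dLG and 1737 to 2913 in MGv. *Mog*, which encodes a glycoprotein of the myelin surface, was 4.30 to 18.5 CPM in VPM and 0.0481 to 1.81 CPM in MGv. The lowest VPM sum, 2979 CPM in VPM b, lay inside the dLG range. Of 5 oligodendrocyte precursor markers, *Pdgfra* and *Cspg4* were lower in VPM and none was higher. Of 8 dissociation stress genes 6 were lower in VPM and 4 were higher in MGv, with sums of 667 to 2553 CPM in VPM, 2697 to 3538 in dLG and 4319 to 6121 in MGv. All 6 microglial markers were lower in VPM, from low levels, with sums of 6.69 to 11.2 CPM there, 10.9 to 91.9 in dLG and 11.8 to 54.5 in MGv. Among astrocyte markers *Gfap* and *Sox9* were lower and *Gja1* and *S100b* higher in VPM, and *Gfap* was higher in MGv. Neuronal markers gave 2 higher in VPM and 2 lower in MGv, meningeal fibroblast markers 1 lower and proliferation markers 1 higher in VPM, and 1 proliferation marker was lower in MGv. Endothelial, mural and ependymal markers gave no call between nuclei in edgeR, and none had an unadjusted p under 0.05. The part of these markers in the lipid result was not tested.

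**Figure D5:**
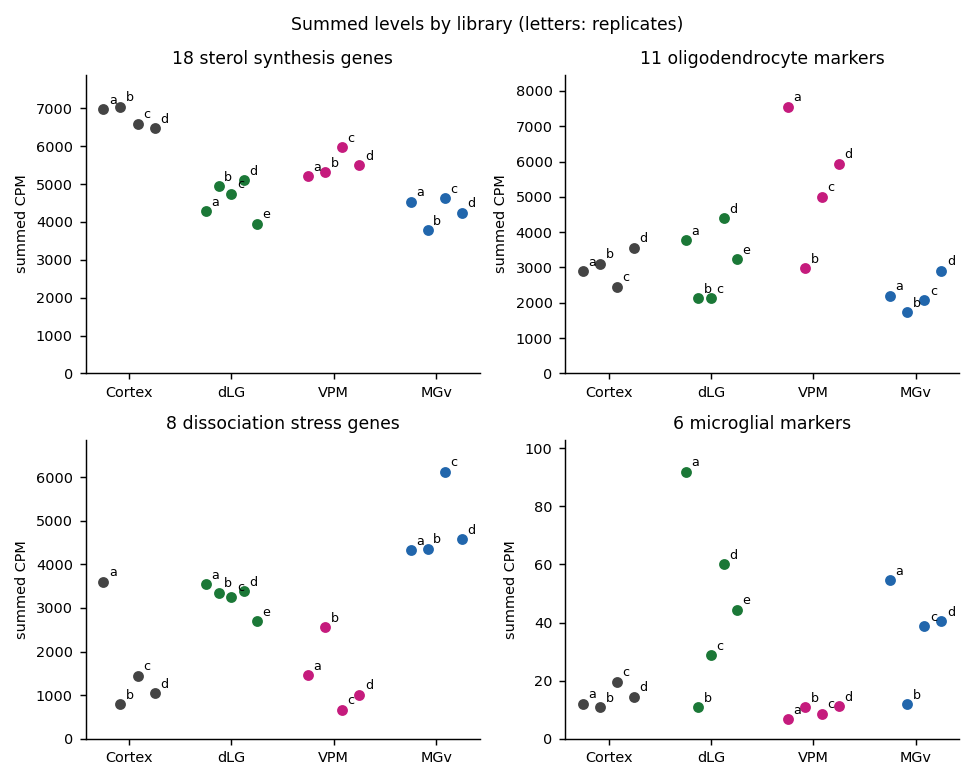
Summed CPM in each library of the 18 sterol synthesis genes and of the oligodendrocyte, dissociation stress and microglial marker lists; letters name the replicates and every axis starts at 0. Sterol sums are 6471 to 7045 in cortex, 3957 to 5099 in dLG, 5213 to 5970 in VPM and 3777 to 4621 in MGv.

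The pathway lists outside the 38 showed the following between nuclei. Myelin galactolipid synthesis gave 3 of 4 genes higher in VPM, led by *Ugt8a*, the galactosyltransferase of cerebroside, at 1.59 ± 0.26 (SE, adjusted p = 0.00349), and *Fa2h*, which hydroxylates its fatty acid, at 0.90 ± 0.22 (SE, adjusted p = 0.024). *Ugt8a* was lower in MGv (-1.08 ± 0.28, adjusted p = 0.0814). Of 22 further fatty acid synthesis genes 7 were higher and 2 lower in VPM, with *Acsl3*, an acyl-CoA synthetase of lipid droplets, at 1.04 ± 0.15 (SE, adjusted p = 0.0019) and *Hsd17b12*, the ketoreductase of elongation, at 0.49 ± 0.11 (SE, adjusted p = 0.0182). *Acsl3* was lower in MGv (-0.59 ± 0.16, adjusted p = 0.0997). It was the single edgeR call of that list there, close to the threshold, and DESeq2 called 5 of the list as lower. Of 11 further sterol genes 2 were higher in VPM, *Acat1*, the mitochondrial thiolase, at 0.66 ± 0.12 (SE, adjusted p = 0.00496) and *Ggps1*, which makes geranylgeranyl diphosphate, at 0.47 ± 0.16 (SE, adjusted p = 0.0794).

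Cholesterol uptake, storage and turnover gave 1 higher and 5 lower of 24 in VPM, and 2 higher in MGv. *Pltp*, the phospholipid transfer protein of lipoproteins, was 7.05 to 9.01 CPM in VPM, 18.2 to 35.4 in dLG and 19.9 to 71.8 in MGv, with log2 fold changes of -2.31 ± 0.29 (SE, adjusted p = 7.2e-04) in VPM and 1.72 ± 0.24 (SE, adjusted p = 0.00189) in MGv. *Cyp7b1* was higher in VPM (0.58 ± 0.13, adjusted p = 0.0182) and *Mylip*, a ligase that degrades lipoprotein receptors, higher in MGv (1.15 ± 0.30, adjusted p = 0.0775). Of 25 genes of fatty acid binding and oxidation 4 were higher and 3 lower in VPM. *Bdh1*, a ketone body dehydrogenase, was higher in VPM (0.58 ± 0.10, adjusted p = 0.00391) and lower in MGv (-0.63 ± 0.10, adjusted p = 0.00461), *Hadhb*, of the trifunctional protein, was higher in VPM (0.47 ± 0.12, adjusted p = 0.0253), and *Acaa2* was higher in MGv (0.62 ± 0.12, adjusted p = 0.0116). *Plin3* was the single edgeR call of 10 glycerolipid genes, lower in VPM (-0.91 ± 0.26, adjusted p = 0.0443), where DESeq2 called 2 lower and 1 higher. In dLG edgeR called no gene of the 6 lists, where 10 had an unadjusted p under 0.05. DESeq2 called 2 there, both higher and both of cholesterol uptake, storage and turnover.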

How the data were processed

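Total RNA of FACS-sorted *Gfap::GFP* cells, amplified with a SMARTer low-input kit, was sequenced in 17 libraries as single reads. The authors aligned reads with STAR 2.7.0d to GRCm38.p6 (mm10) and deposited whole-number counts per gene from featureCounts (Subread 1.6.4, Ensembl annotation); the strand setting was not given in the sources used here. Names, exons and positions came from GENCODE M21 on the same build. The counts were tested in edgeR 4.0.16 (R 4.3.3; filterByExpr, TMM, robust quasi-likelihood) with Benjamini-Hochberg adjustment over all genes and a threshold of 0.1, after the study. Thalamus was compared with cortex as 2 groups, each nucleus with the mean of the other 2 among 13 libraries, and each nucleus with cortex in a fit of 4 groups. DESeq2 1.42.0 was one of the alternatives, and the fits were tested on simulated data. Standard errors were derived from the F statistic. The 38 genes and all lists were chosen with earlier results of these data known. Values per library are given for up to 14 called genes by lowest p, and always for *Apoe*, *Clu*, *Srebf2*, *Insig1*, *Hmgcs1*, *Sqle* and *Fasn*; list genes are named by lowest p, and some list genes are not reported here. Each library pooled 4 brains, and nothing states that replicates came from separate litters or days, so p-values measure the spread between these libraries. No pair of libraries was identical (highest r of log2 CPM 0.977).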

Additional observations from a re-analysis of the deposited data

Results flagged for a closer look

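Among 152 sets of libraries, 38 genes in 4 groups, 10 had a library whose gap to its neighbour exceeded Dixon's 95% value, where chance flags about 1 in 20. MGv b gave 4 of the 10, low for *Acat2* (144 CPM against 185 to 187 in the other MGv libraries) and *Sqle* (371 against 555 to 590.1 CPM), and high for *Mvk* (159 against 102 to 108 CPM) and *Tm7sf2* (220.0 against 122 to 130.2 CPM). VPM c was high for *Cyp51* (679 against 576 to 584 CPM) and *Msmo1* (1244 against 1016 to 1038 CPM). *Scd1* was flagged in VPM b (135 against 67.7 to 79.0 CPM) and in MGv a (75.4 against 123 to 131 CPM). In cortex, *Lss* was high in library a (205 against 175 to 178 CPM) and *Srebf1* in library d (369 against 306 to 311 CPM).

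For 5 genes, a nucleus had a called difference from the other nuclei, and its log2 fold change against cortex had the opposite sign to theirs. Against cortex itself, only *Abca1* and *Fasn* in dLG and MGv and *Clu* in MGv passed the test. The other values against cortex give a sign only. *Srebf1* (log2 fold change -0.45 in VPM against the other nuclei), *Srebf2* (-0.64), *Abca1* (-1.05) and *Fasn* (-1.32) gave -0.18, -0.46, -0.13 and -0.33 in VPM against cortex. Against cortex they gave positive values in both dLG and MGv, 0.17 and 0.30 for *Srebf1*, 0.14 and 0.16 for *Srebf2*, 0.82 and 0.96 for *Abca1* and 0.95 in both for *Fasn*. *Clu* (0.90 in MGv against the other nuclei) was above cortex in MGv by 0.75 and below it in dLG and VPM, at -0.23 and -0.03.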

How the results depend on the processing

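No call among the 66 made over the 7 comparisons changed direction in 1587 refits of a called gene under the other settings. The call was kept in 1341 of these, and 16 of the 66 were called in every setting. The refits reuse the same libraries and so are not independent. Some of those against cortex left out only a library of a nucleus outside the comparison. The 12 genes lower in thalamus numbered 10 to 13 without single libraries, 3 and 1 within the 2 number series, and 10 to 15 in the other 8 settings; none was higher in any. Against the other nuclei, the 5 higher in VPM numbered 3 to 7 without single libraries (3 without any VPM library), 3 at adjusted p under 0.05 and 3 in the first number series alone, and the 5 lower numbered 1 to 7 (1 without VPM a, 2 without VPM c or d, 3 without dLG b, MGv b or MGv c), 3 at adjusted p under 0.05, 3 without a filter on low counts and 3 in the first number series alone. In dLG against the other nuclei 0 to 1 were called in each direction without single libraries (1 higher without dLG d, 1 lower without MGv a), and DESeq2 called 1 lower. Against cortex, the 4 higher in dLG numbered 0 to 4 without single libraries, 1 with the number series as a covariate and 0 in either series alone, and the 14 lower numbered 10 to 15, with 5 and 2 in the series alone. The 5 lower in VPM numbered 2 to 7 without single libraries, 3 at adjusted p under 0.05, 8 in DESeq2, and 0 and 1 in the series alone. In MGv the 4 higher numbered 1 to 4, with 2 at adjusted p under 0.05 and 1 in the first number series alone, and the 16 lower numbered 12 to 17, with 9 in the first number series alone. The first series alone for the nucleus comparisons, and both series alone for dLG and VPM against cortex, were chosen after seeing the data; these subsets hold fewer libraries. The covariate fit gives dLG c its own term and so drops it.

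Same-lettered libraries did not deviate together (24 pairs, r from -0.157 to 0.219, median 0.007, 4 over 0.1), so they were not treated as pairs. Such correlations cannot tell whether any libraries came from the same brains or day. With the replicate block, which drops dLG e, the only library of its letter, 11 genes were lower in thalamus, 2 higher in MGv than in the other nuclei, 2 higher in dLG than in cortex and 10 lower in VPM than in cortex. Depth set the floor at 0.0596 to 0.165 CPM, below the lowest level of all 38 genes.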

Other observations

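Libraries e of dLG and b of MGv were both at an extreme of their nucleus for 7 genes chosen after their values were seen. Both had the lowest values of their nucleus for *Idi1* (4.49 and 4.09 CPM), *Sqle* (367 and 371 CPM), *Cyp51* (351 and 239 CPM) and *Insig1* (129 and 145 CPM), and the highest values of their nucleus for *Apoe* (12552 and 16130 CPM), *Mvk* (158 and 159 CPM) and *Acaca* (46.1 and 42.4 CPM). MGv b was the lowest MGv library for 12 of the 38 genes and the highest for 17, and dLG e the lowest dLG library for 14 and the highest for 5. For *Abca1* and *Fasn* MGv b was the highest MGv library, while dLG c was the highest in dLG. In VPM the library a was lowest for 23 of 38.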
